A study of Mus musculus with 15 samples.

Results

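The 10 genes described here encode enzymes and metal-binding proteins that cells use against oxidants: heme oxygenase 1 (Hmox1), the metallothioneins Mt1 and Mt2, the glutathione peroxidases Gpx4 and Gpx1, the superoxide dismutases Sod1 and Sod2, catalase (Cat), thioredoxin reductase 1 (Txnrd1) and the catalytic subunit of glutamate-cysteine ligase (Gclc). They were taken by name, and the values of their Ensembl transcripts were summed to a level per gene. All 10 were found among the 12391 named genes of the files, and all 10 passed the filter on low values, as did 12267 genes in all. RNA depleted of rRNA was sequenced from hearts of male C57BL/6 mice in 3 groups of 5: mice given an infusion of AngII (angiotensin II, the pressor hormone of the renin-angiotensin system) together with QDG, called AngII+QDG below, mice infused with AngII alone, and Control mice. QDG is known from the labels only by this abbreviation. Doses, duration and age were not stated in the sources used here. The study set out to find genes and pathways that differ in the AngII model after QDG. No transgene or other allele is named, and each library is a whole piece of heart tissue in which all cell types are mixed.

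Superoxide dismutases turn superoxide into hydrogen peroxide, Sod1 mainly in the cytosol and Sod2 in the mitochondrial matrix. Catalase, the glutathione peroxidases and the thioredoxin system remove peroxides, and Gclc catalyses the rate-limiting step of glutathione synthesis, on which Gpx1 and Gpx4 draw. Metallothioneins are small cysteine-rich proteins that bind zinc and copper, and their genes are induced by metals through the factor MTF1. Hmox1 breaks down heme and is a classical target of the oxidant-sensing factor NRF2 and its repressor BACH1, as are Txnrd1 and Gclc. In cardiac muscle, which is rich in mitochondria, these enzymes are studied as a defence against oxidants in hypertrophy and failure.

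Levels are FPKM, fragments per kilobase of transcript and 1000000 mapped fragments, and differences are on the log2(FPKM + 1) scale, where changes of low genes come out too small. Low values rose in whole steps, and with 1 step read as 1 fragment the libraries held 51.6 to 78.3 times 1000000 fragments. The 8 cardiomyocyte markers were present in every group. In Control libraries short transcripts stood higher relative to long ones. The mean log2(FPKM + 1) of 2277 protein-coding transcripts under 1000 nt minus that of 6255 of at least 3000 nt was 0.806 ± 0.0954 in AngII+QDG, 0.842 ± 0.0718 in AngII and 1.20 ± 0.183 in Control (SD, n = 5 each). It was highest in Control 3 and Control 5, at 1.40 and 1.36, and Control 5 listed 20.6% of transcripts at 0, against 4.86 to 12.7% in the other 14 libraries. The median log2 fold change of all tested genes against Control was not at 0 but at 0.20 for AngII and 0.18 for AngII+QDG. With each library centred on its median over the genes, these medians were −0.06 and −0.09.

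Promoter sequences are printed for the 4 members whose mean was lowest in AngII+QDG and highest in Control and whose main transcript is under 1000 nt, Mt1, Mt2, Gpx4 and Sod1, because metals act on metallothionein genes through short elements near the start. The windows run from 250 bases before to 50 bases after a RefSeq start (GRCm38.p6, plus strand) and are given 5′ to 3′ in lower case. Capitals mark matches, on either strand, to the antioxidant response element core TGACNNNGC or to the metal response element cores TGCACNC and TGCGCNC. No match of one kind overlapped one of the other.
Mt1, chr8:94178839-94179138: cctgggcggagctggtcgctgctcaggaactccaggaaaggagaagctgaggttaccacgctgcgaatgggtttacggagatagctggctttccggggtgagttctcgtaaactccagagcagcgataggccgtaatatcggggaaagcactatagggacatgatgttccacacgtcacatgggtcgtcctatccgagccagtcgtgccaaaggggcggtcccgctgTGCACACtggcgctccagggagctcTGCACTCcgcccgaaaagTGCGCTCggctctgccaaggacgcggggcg
Mt2, chr8:94172368-94172667: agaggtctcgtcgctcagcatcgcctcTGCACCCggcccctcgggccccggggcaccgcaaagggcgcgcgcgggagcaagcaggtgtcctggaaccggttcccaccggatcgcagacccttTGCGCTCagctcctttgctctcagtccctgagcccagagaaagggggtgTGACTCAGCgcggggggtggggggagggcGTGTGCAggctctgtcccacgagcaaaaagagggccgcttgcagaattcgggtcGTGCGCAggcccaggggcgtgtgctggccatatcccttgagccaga
Gpx4, chr10:80053315-80053614: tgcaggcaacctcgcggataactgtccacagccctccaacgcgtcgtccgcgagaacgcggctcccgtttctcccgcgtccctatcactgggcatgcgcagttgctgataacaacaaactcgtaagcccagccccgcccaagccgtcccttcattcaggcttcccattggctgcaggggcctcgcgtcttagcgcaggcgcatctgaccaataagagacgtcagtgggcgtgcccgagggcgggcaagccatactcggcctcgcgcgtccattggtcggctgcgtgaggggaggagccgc
Sod1, chr16:90220512-90220811: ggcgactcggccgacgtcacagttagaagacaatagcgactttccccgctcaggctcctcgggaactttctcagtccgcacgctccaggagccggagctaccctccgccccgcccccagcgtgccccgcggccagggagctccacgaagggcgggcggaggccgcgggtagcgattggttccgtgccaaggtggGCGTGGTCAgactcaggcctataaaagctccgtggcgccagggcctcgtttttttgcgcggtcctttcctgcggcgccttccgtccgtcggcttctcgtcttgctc

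The metallothionein windows held several metal response element cores. Mt1 had 3 and Mt2 had 4, where 1.97% of the 32817 RefSeq promoter windows had 3 or more and 25.7% had at least 1. In Mt1 they lay at −23 to −17, 2 to 8 and 20 to 26, counting the RefSeq start base as 0. In Mt2 they lay at −223 to −217, −128 to −122, −50 to −44 and 4 to 10. Mt1 and Mt2 were each matched to 1 RefSeq start, and whether the heart uses it was not tested. The Mt2 window also held an antioxidant response element core at −79 to −71, and that of Sod1 held 1 at −56 to −48. This core was in 12.4% of all windows. The printed Gpx4 window, the nearest of 4 to the start of its main transcript at 77 bases, held neither motif. Of the other members, 1 of 3 Txnrd1 windows held an antioxidant core, at −92 to −84, and the windows of Gpx1, Sod2 and Cat held neither motif. In all, 8 of the 10 members were matched to 13 windows, and Hmox1 and Gclc were not. A match describes letters only and was not tested for binding.

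The order of levels in Control hearts was Gpx4 (755 ± 53.3 FPKM), Mt1 (461 ± 109), Sod1 (394 ± 38.9), Sod2 (120 ± 17.6), Gpx1 (88.9 ± 15.6), Mt2 (61.8 ± 17.0), Cat (47.8 ± 19.96), Txnrd1 (6.85 ± 3.62), Hmox1 (3.57 ± 1.55) and Gclc (1.25 ± 0.716; SD, n = 5). The libraries of neighbours in this order overlapped for Mt1 and Sod1, Sod2 and Gpx1, Mt2 and Cat, Txnrd1 and Hmox1, and Hmox1 and Gclc. Those of Gpx4 and Mt1, Sod1 and Sod2, Gpx1 and Mt2, and Cat and Txnrd1 did not overlap. The cytosolic and mitochondrial dismutases, the peroxidases and the metallothioneins were thus abundant, while the 3 members usually listed as NRF2 targets were the lowest. By its mean over 15 libraries Gpx4 ranked at 91 and Gclc at 8221 of all genes.

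Hmox1, the inducible heme oxygenase, rose in AngII hearts. Its gene (ENSMUSG00000005413, GRCm38 chr8:75093621-75100589, plus strand) was measured through 1 transcript of 1569 nt. Replicates 1 to 5 held 4.67, 4.42, 4.66, 4.61 and 4.35 FPKM in AngII+QDG, 7.21, 9.49, 6.54, 16.5 and 6.75 FPKM in AngII, and 4.38, 5.33, 3.49, 3.52 and 1.15 FPKM in Control. Every AngII library lay above every library of the other groups, AngII 4 was the highest and Control 5 the lowest, and the AngII+QDG libraries lay close together among the upper Control values. The means were 4.54 ± 0.148 in AngII+QDG, 9.29 ± 4.18 in AngII and 3.57 ± 1.55 in Control (SD, n = 5 each). AngII against Control gave a log2 fold change of 1.18 ± 0.27 (SE; 95% interval 0.60 to 1.76; limma adjusted p = 0.0202), and 1 of the 10 members rose in this comparison, where 11.9% of all tested genes did. This call was lost without AngII 2 (1.15, adjusted p = 0.0535) and without Control 3 and Control 5 together (0.86, adjusted p = 0.0731). The values rest on 373 to 531 fragments in AngII+QDG, 640 to 1975 in AngII and 131 to 555 in Control.

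Between AngII+QDG and AngII, Hmox1 was the member with the smallest p. All 5 AngII+QDG libraries were below all 5 AngII libraries, as in 0.799% of all tested genes, and no other member had groups that did not overlap here. The log2 fold change was −0.81 ± 0.27 (SE; 95% interval −1.39 to −0.24). In limma's fit over all genes it did not pass (unadjusted p = 0.00892, adjusted p = 0.793), and 0 of the 12267 genes did, with 578 (4.71%) at an unadjusted p under 0.05 and 1 called by limma voom on fragments. Without AngII 4, the highest library, it was −0.60. AngII+QDG against Control gave 0.36 ± 0.27 (SE; 95% interval −0.21 to 0.94; adjusted p = 0.368), with overlapping libraries. The differences of AngII from Control and of AngII+QDG from AngII share the AngII libraries.

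Macrophages and blood are other sources of Hmox1 transcript in a tissue sample. All 11 macrophage markers were in the files, and their summed FPKM ran from 150 to 202 in AngII+QDG, 137 to 253 in AngII and 151 to 248 in Control, so the groups overlapped. The mean summed FPKM of the 11 was 171 in AngII+QDG, 176 in AngII and 199 in Control. Cd163, the scavenger receptor for hemoglobin, and Lyve1 rose in AngII against Control, where 11.9% of all genes did. Cd163, Lyve1 and Mrc1 rose in AngII+QDG against Control, where 16% of all genes did. The median log2 fold changes of the 11 in these comparisons were −0.01 and −0.11, beside 0.20 and 0.18 over all tested genes. None of the 11 passed between AngII+QDG and AngII. The 5 erythroid markers in the files, of 7 listed, summed to 2698 to 9472 FPKM in AngII+QDG, 2198 to 9324 in AngII and 3795 to 12221 in Control. Of these 5, Hba-a2, an alpha globin, fell in AngII+QDG against Control. In the same comparison Lum and Pdgfra, of 8 fibroblast markers, rose, and of 8 endothelial markers Kdr and Tek rose and Vwf fell. Of all genes, 16% rose and 3.31% fell there. Ryr2, of 8 cardiomyocyte markers, and Rgs5, of 7 markers of smooth muscle and pericytes, rose in AngII against Control, where 11.9% of all genes did. No marker of these cell types passed between AngII+QDG and AngII. The part of any cell type in the Hmox1 values was not tested, and in bulk tissue a change in the number of cells and in RNA per cell cannot be told apart.

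**Figure D1:**
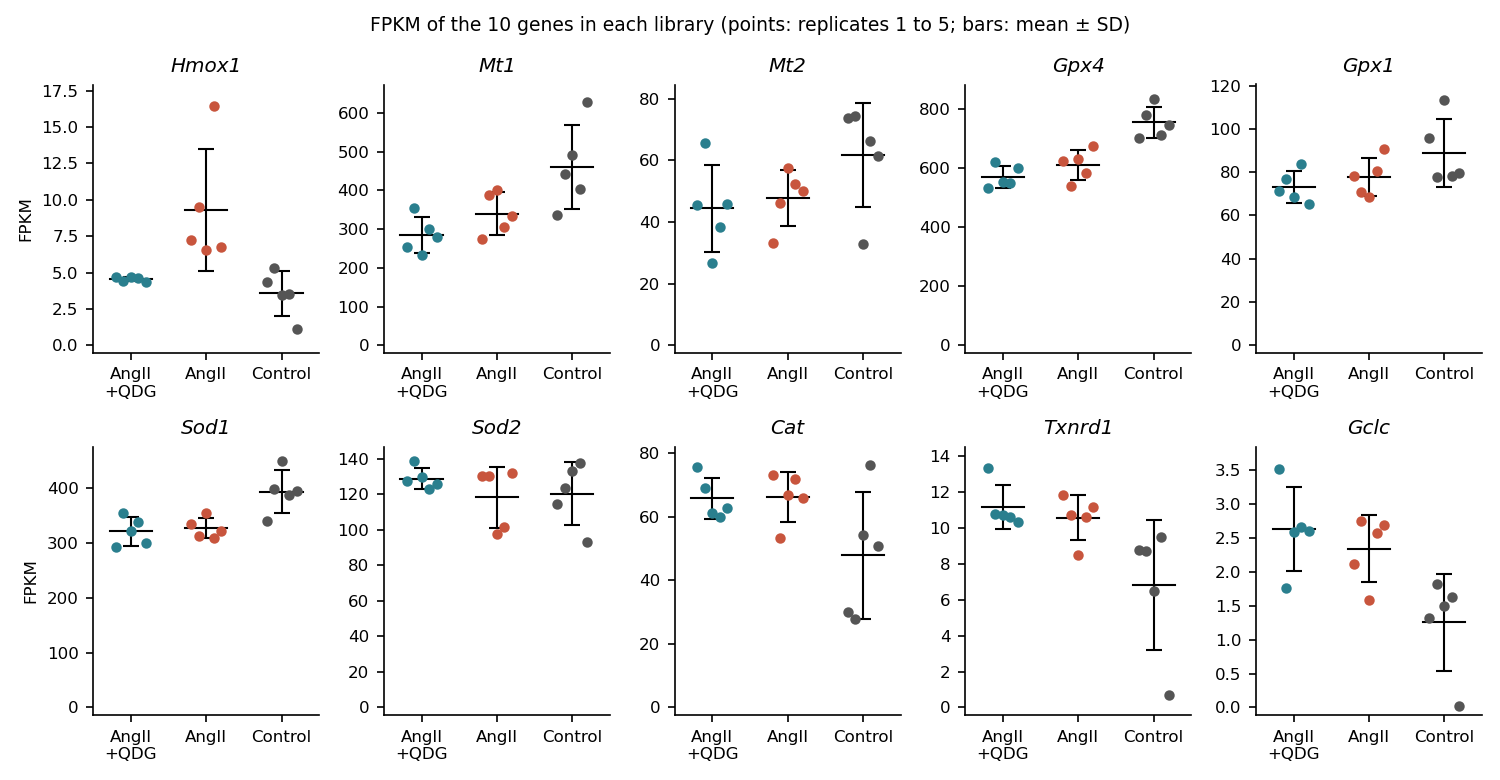
FPKM of each of the 10 genes (vertical axes, linear, starting near 0) in the 5 libraries of AngII+QDG, AngII and Control; points are libraries and bars the mean ± SD. Every AngII library lies above the others for Hmox1, every Control library above the others for Gpx4, and Control 5 is far below the rest for Txnrd1 and Gclc.

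Mt1, the most abundant metallothionein, fell in AngII+QDG hearts against Control. Replicates 1 to 5 held 254, 355, 233, 300.1 and 279 FPKM in AngII+QDG, 274, 388, 402, 305 and 333 FPKM in AngII, and 336, 443, 491, 404 and 628 FPKM in Control. The groups overlapped, with AngII+QDG 2 above Control 1, and Control 5 was the highest library. The log2 fold change of AngII+QDG against Control was −0.68 ± 0.16 (SE; 95% interval −1.02 to −0.33; limma adjusted p = 0.0122). Here 3 of the 10 members fell, Mt1, Gpx4 and Sod1, where 3.31% of all genes did. All 3 have a main transcript under 1000 nt, and short genes fell more often. Of the genes in the shortest length class (median 519 nt), which holds Mt1 and Sod1, 12.1% fell. In the class of Gpx4 (median 875 nt) 12.5% did. For Mt1, AngII against Control gave −0.42 ± 0.16 (adjusted p = 0.0961) and AngII+QDG against AngII gave −0.26 ± 0.16 (95% interval −0.61 to 0.09; adjusted p = 0.998). Without Control 3 and Control 5 the difference between AngII+QDG and Control was −0.48 (adjusted p = 0.0701).

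Mt2 lies 5513 bases before Mt1 on the same strand of chromosome 8 (Mt2 ENSMUSG00000031762, chr8:94172664-94173568; Mt1 ENSMUSG00000031765, chr8:94179082-94180327; GRCm38). It was the less abundant of the pair. Its levels were 26.7 to 65.7 FPKM in AngII+QDG, 33.3 to 57.4 in AngII and 33.0 to 74.4 in Control, where Control 3 was the lowest library and the other 4 lay at 61.5 or above. Mt2 passed in no comparison: AngII+QDG against Control was −0.47 ± 0.25 (SE; limma adjusted p = 0.196), AngII against Control −0.33 ± 0.25 (adjusted p = 0.374) and AngII+QDG against AngII −0.14 ± 0.25 (adjusted p = 0.998). Control 3, above 3 of the other Control libraries for Mt1, was thus the lowest for Mt2, and without it the Mt2 difference of AngII+QDG from Control was −0.68 (adjusted p = 0.0491). Mt3, a metallothionein best known from brain, was low, at 1.30 ± 0.856 FPKM in AngII+QDG, 1.65 ± 0.667 in AngII and 2.28 ± 1.10 in Control (SD, n = 5 each). Mtf1, the metal-sensing factor, had 2.76 ± 0.638, 2.02 ± 0.672 and 1.38 ± 0.902 FPKM in these groups and passed in none of the comparisons.

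Gpx4, the peroxidase that reduces lipid hydroperoxides in membranes and so restrains ferroptosis, was lower in both AngII groups than in Control. Replicates 1 to 5 held 534, 619, 552, 548 and 602 FPKM in AngII+QDG, 625, 539, 630.3, 585 and 676 FPKM in AngII, and 704, 780, 835, 714 and 745 FPKM in Control. Every Control library lay above every library of both AngII groups, which overlapped each other. AngII+QDG against Control gave −0.40 ± 0.08 (SE; 95% interval −0.57 to −0.23; limma adjusted p = 0.00592), and this fall passed with each library left out in turn (adjusted p 0.00464 to 0.0187) but not with quantile normalization (−0.18, adjusted p = 0.0761) or with the library balance described above as a covariate (−0.21, adjusted p = 0.690). AngII against Control gave −0.31 ± 0.08 (adjusted p = 0.0288). Gpx4 was the only member that fell here, where 1.48% of all genes and 6.37% of its length class (median 875 nt) did. That call was lost without Control 2, Control 3, AngII 2 or AngII 4 (adjusted p 0.0545, 0.0602, 0.0734 and 0.0661), and with quantile normalization (−0.16, adjusted p = 0.140). AngII+QDG against AngII gave −0.10 ± 0.08 (95% interval −0.27 to 0.08; adjusted p = 0.998).

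The Gpx4 gene (ENSMUSG00000075706, GRCm38 chr10:80047166-80056439, plus strand) was measured mostly through ENSMUST00000105372, a coding transcript of 959 nt with 96.6% of the gene's FPKM in AngII+QDG, 97.3% in AngII and 96.3% in Control. A second coding transcript, ENSMUST00000097227, had 8.30 and 8.67 FPKM in AngII+QDG 4 and AngII+QDG 5 and at most 1.04 FPKM in the other 13 libraries. It made up 0.674% of the gene in AngII+QDG, 0.105% in AngII and 0.0644% in Control. This transcript was noticed after its values were seen and has no test of its own. Copies of Gpx4 and of other short genes elsewhere in the genome could share reads with them, so their levels are uncertain to that extent.

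Gpx1, the abundant cytosolic and mitochondrial peroxidase (ENSMUSG00000063856, GRCm38 chr9:108338903-108340343, plus strand), had 73.1 ± 7.32 FPKM in AngII+QDG, 77.9 ± 8.84 in AngII and 88.9 ± 15.6 in Control (SD, n = 5 each). Control 3 and Control 1 were the highest libraries, and the groups overlapped in each comparison. It passed in none, with −0.27 ± 0.12 for AngII+QDG against Control (SE; limma adjusted p = 0.133), −0.18 ± 0.12 for AngII against Control (adjusted p = 0.321) and −0.09 ± 0.12 for AngII+QDG against AngII (adjusted p = 0.998). Gpx3, the secreted plasma peroxidase and no member, fell in AngII+QDG against Control, with 105 ± 42.8 FPKM against 208 ± 25.4 (SD, n = 5 each; log2 fold change −1.09 ± 0.34 SE, adjusted p = 0.0379). In AngII it had 118 ± 42.8 FPKM, below every Control library, and did not pass (−0.90 ± 0.34, adjusted p = 0.0904).

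Sod1, the copper and zinc dismutase (ENSMUSG00000022982, GRCm38 chr16:90220754-90226329, plus strand), fell in AngII+QDG against Control. Replicates 1 to 5 held 292, 354, 322, 338 and 299 FPKM in AngII+QDG, 335, 313, 355, 310.0 and 323 FPKM in AngII, and 339.9, 398, 449, 387 and 395 FPKM in Control. Only Control 1 lay within the range of the AngII groups. AngII+QDG against Control gave −0.29 ± 0.09 (SE; limma adjusted p = 0.0287), AngII against Control −0.26 ± 0.09 (adjusted p = 0.0543) and AngII+QDG against AngII −0.03 ± 0.09 (95% interval −0.21 to 0.15; adjusted p = 0.998). The call for AngII+QDG against Control was lost without any of Control 2, Control 3, AngII+QDG 1, AngII+QDG 3 and AngII+QDG 5 (adjusted p 0.0505 to 0.0761). Ccs, the copper chaperone of Sod1, had 14.96 ± 2.97 FPKM in AngII+QDG, 18.2 ± 2.41 in AngII and 19.4 ± 3.05 in Control (SD, n = 5 each) and passed in no comparison.

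Sod2, the mitochondrial manganese dismutase (ENSMUSG00000006818, GRCm38 chr17:13006846-13040063, plus strand), had 129 ± 6.08 FPKM in AngII+QDG, 118 ± 17.1 in AngII and 120 ± 17.6 in Control (SD, n = 5 each). Its log2 fold changes were the closest to 0 of the 10 genes against Control, at 0.11 ± 0.12 for AngII+QDG (SE; 95% interval −0.14 to 0.36; limma adjusted p = 0.550) and −0.02 ± 0.12 for AngII (95% interval −0.28 to 0.23; adjusted p = 0.915). AngII+QDG against AngII gave 0.13 ± 0.12 (adjusted p = 0.998). Cat, which breaks down hydrogen peroxide in peroxisomes (ENSMUSG00000027187, GRCm38 chr2:103453849-103485160, minus strand), had 60.1 to 75.8 FPKM in AngII+QDG, 53.3 to 73.1 in AngII and 27.7 to 76.4 in Control. Control spanned the widest range, with Control 1 and Control 2 at 29.9 and 27.7 and Control 4 at 76.4. Cat passed in no comparison, with 0.54 ± 0.22 for AngII+QDG against Control (adjusted p = 0.0970) and 0.55 ± 0.22 for AngII against Control (adjusted p = 0.105). Without Control 4 the AngII difference from Control was 0.74 (adjusted p = 0.0163) and that of AngII+QDG 0.74 (adjusted p = 0.0124).

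Gclc, the catalytic subunit of the enzyme that limits glutathione synthesis (ENSMUSG00000032350, GRCm38 chr9:77754535-77794485, plus strand), rose in AngII+QDG against Control. Replicates 1 to 5 held 3.52, 1.76, 2.59, 2.66 and 2.60 FPKM in AngII+QDG, 2.11, 2.75, 1.58, 2.57 and 2.68 FPKM in AngII, and 1.32, 1.82, 1.49, 1.63 and 0.0160 FPKM in Control. Control 5 was far below all others, at 4 fragments where the other libraries had 297 to 719, and Control 2 lay above AngII+QDG 2. The log2 fold change of AngII+QDG against Control was 0.75 ± 0.24 (SE; 95% interval 0.24 to 1.27; limma adjusted p = 0.0409), the only member that rose here, where 16% of all genes did. Without Control 5 it was 0.49 with the call kept, but 8 of the 15 single-library omissions lost it (highest adjusted p = 0.102), as did 8 of the 11 other alternatives, over which the value ran from 0.00522 with the library balance as a covariate to 2.03 with voom (adjusted p = 0.133). With a pseudocount of 0.1 FPKM it was 1.46 (adjusted p = 0.110). AngII against Control gave 0.64 ± 0.24 (adjusted p = 0.0891) and AngII+QDG against AngII 0.11 ± 0.24 (95% interval −0.40 to 0.63; adjusted p = 0.998). Gclm, the modifier subunit of the same enzyme, had 2.37 ± 0.649 FPKM in AngII+QDG, 2.43 ± 1.03 in AngII and 2.24 ± 0.441 in Control (SD, n = 5 each), with log2 fold changes of 0.04 ± 0.23 for AngII+QDG and 0.02 ± 0.23 for AngII against Control (adjusted p 0.911 and 0.968).

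Txnrd1, the cytosolic reductase of thioredoxin (ENSMUSG00000020250, GRCm38 chr10:82833951-82897712, plus strand), held 13.3, 10.8, 10.7, 10.6 and 10.3 FPKM in replicates 1 to 5 of AngII+QDG, 11.9, 10.8, 8.51, 10.6 and 11.2 FPKM in AngII, and 8.80, 8.71, 6.51, 9.52 and 0.692 FPKM in Control. Every AngII+QDG library lay above every Control library, and Control 5 was again far below the rest. The AngII+QDG values include the transcript ENSMUST00000020484, which is listed only in the AngII+QDG files and averaged 1.33 FPKM there. Over transcripts listed in every file Txnrd1 had 6.55 to 11.3 FPKM in AngII+QDG and 0.692 to 9.52 in Control, and these groups overlapped. No comparison passed: AngII+QDG against Control gave 0.87 ± 0.38 (SE; 95% interval 0.06 to 1.69; limma adjusted p = 0.123), AngII against Control 0.80 ± 0.38 (adjusted p = 0.166) and AngII+QDG against AngII 0.07 ± 0.38 (adjusted p = 0.998). Without Control 5 the difference of AngII+QDG from Control was 0.38 (adjusted p = 0.0488), but over transcripts listed in every file, again without Control 5, it was 0.20 (adjusted p = 0.412), a fit chosen after seeing the data. Over those transcripts AngII+QDG against AngII was −0.11 in place of 0.07. Txnrd2, the mitochondrial reductase, had 21.1 ± 0.972 FPKM in AngII+QDG, 21.3 ± 1.63 in AngII and 21.5 ± 4.63 in Control (SD, n = 5 each).

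Counted together, 4 of the 10 genes passed in AngII+QDG against Control (Gclc higher, Gpx4, Mt1 and Sod1 lower), where 19.4% of all tested genes passed. In AngII against Control 2 passed (Hmox1 higher, Gpx4 lower), where 13.4% of all genes passed. In AngII+QDG against AngII none of the 10 passed, where 0% of all genes passed. With quantile normalization 0 rose and 1 fell, Mt1, in AngII+QDG against Control (983 and 999 of all genes, in place of 1968 and 406), and with median scaling 0 rose and 4 fell, Mt1, Gpx4, Sod1 and Gpx1 (791 and 1625). In AngII against Control Hmox1 rose and Sod1 fell with quantile normalization (406 and 413 of all genes, in place of 1457 and 181), where Gpx4 no longer passed, and Hmox1 rose and Gpx4 and Sod1 fell with median scaling (361 and 715). Without Control 3 and Control 5, 1 of the 10 passed in AngII+QDG against Control and 0 in AngII against Control. The median log2 fold changes of the 10 genes in these comparisons were −0.08, −0.10 and −0.06, beside medians over all tested genes of 0.18, 0.20 and −0.02. The groups did not overlap for Gpx4 and, with the transcript listed only in the AngII+QDG files, Txnrd1 in AngII+QDG against Control (14.5% of all genes), for Hmox1 and Gpx4 in AngII against Control (11.1%), and for Hmox1 in AngII+QDG against AngII (1.39%).

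**Figure D2:**
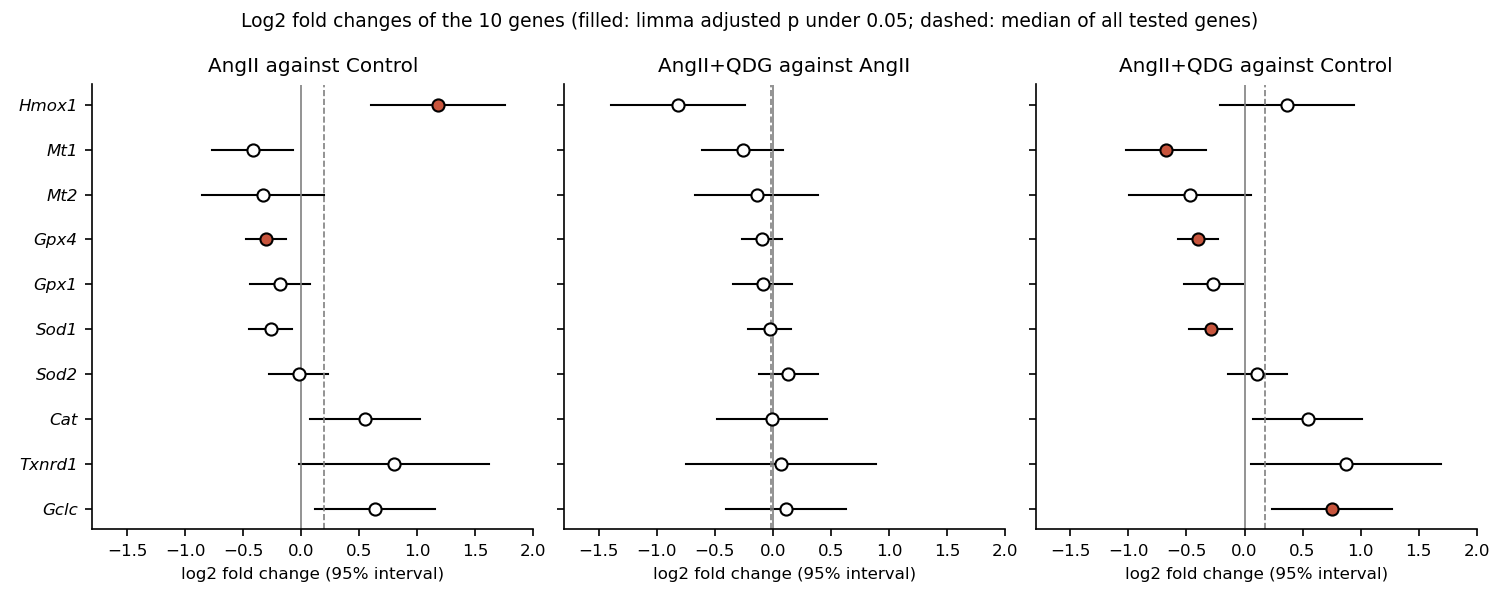
Log2 fold change of each of the 10 genes (horizontal axis; points with 95% intervals) in the 3 comparisons; filled points passed limma at an adjusted p under 0.05, and the dashed line is the median of all tested genes. Hmox1 stands at 1.18 in AngII against Control and −0.81 in AngII+QDG against AngII, while the intervals of the other 9 genes in AngII+QDG against AngII all include 0.

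Against Control the sign of the change went with transcript length for 8 of the 10 members, Hmox1 and Sod2 set aside. The 5 with a main transcript of 511 to 1072 nt (Mt2, Mt1, Sod1, Gpx4 and Gpx1) had negative log2 fold changes in both AngII groups against Control. Those of 2613 to 3531 nt (Cat, Gclc and Txnrd1) had positive ones. These signs held under median scaling and quantile normalization. Sod2, with the longest main transcript at 5861 nt, stood at 0.11 for AngII+QDG and −0.02 for AngII. All tested genes showed a like slope: the median log2 fold change of AngII against Control was −0.13 in the class with the shortest main transcripts (median 519 nt) and 0.37 in a class with a median of 4697 nt, and that of AngII+QDG against Control was −0.14 and 0.38. Between AngII+QDG and AngII the class medians stayed within −0.05 and 0.05.

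Set against the median of its own length class, Hmox1 (1569 nt) lay 1.05 above it in AngII against Control and −0.77 from it in AngII+QDG against AngII, the farthest of the 10 genes in each. In AngII+QDG against Control, Mt1, Gpx4 and Sod1 lay −0.53, −0.28 and −0.15 from their class medians, and Gclc and Txnrd1 0.46 and 0.58 above. Sod2 lay −0.39 from the median of its class in AngII against Control. With the balance of short and long transcripts of each library as a covariate, none of the 10 passed against Control, and the signs of Mt1 and Gclc in AngII against Control and of Txnrd1 against Control turned, as did those of Hmox1 and Sod2 in AngII+QDG against Control. In that fit 0 of the 12267 genes passed in AngII against Control, with 651 at an unadjusted p under 0.05, and 0 in AngII+QDG against Control, with 937. The log2 fold change of Hmox1 was then 0.64 ± 0.42 for AngII against Control and −0.87 ± 0.26 for AngII+QDG against AngII (SE; limma adjusted p 0.931 and 0.595). The balance differs between Control and the AngII groups, so its part and that of the treatment cannot be told apart there.

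**Figure D3:**
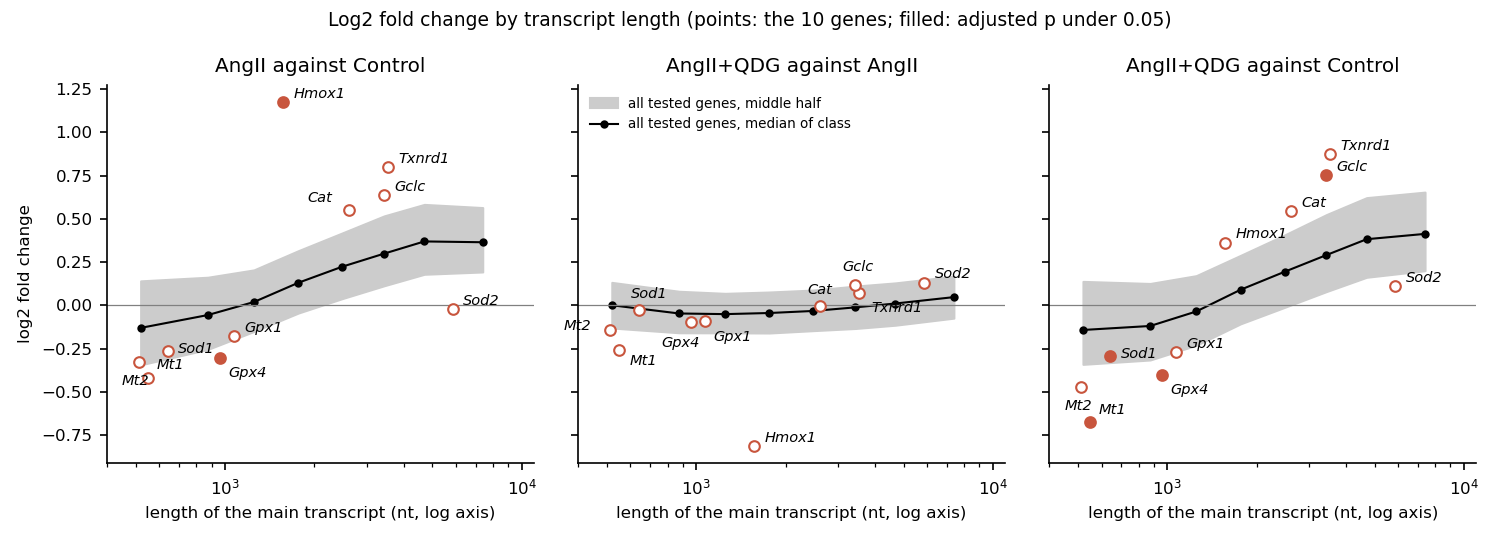
Log2 fold change (vertical axis) against the length of the main transcript in nt (horizontal log axis) for the 10 genes, in the 3 comparisons; filled points passed limma at an adjusted p under 0.05. The line is the median of all tested genes per length class and the band the range between their quartiles: it runs from −0.13 to 0.37 in AngII against Control and stays near 0 in AngII+QDG against AngII, where Hmox1 lies far below it.

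The wider redox, metal and heme pathways were read through 11 lists of 124 genes, of which 115 were tested. In AngII+QDG against Control 18 rose and 12 fell (26.1% of those tested, beside 19.4% of all genes), in AngII against Control 12 rose and 4 fell (13.9%, beside 13.4%), and in AngII+QDG against AngII none passed. The split depends on the scaling: 7 rose and 33 fell in AngII+QDG against Control with median scaling and 11 and 19 with quantile normalization, and 1 rose and 16 fell, and 5 and 7, in AngII against Control. Without Control 3 and Control 5, 9 rose and 8 fell in AngII+QDG against Control, with Bach1, Txnip, Fth1 and Atox1 among them, and none passed in AngII against Control. The counts by list below stand beside 16% of all genes higher and 3.31% lower in AngII+QDG against Control, and 11.9% and 1.48% in AngII against Control. Under both median scaling and quantile normalization, 7 of the 18 rises and 9 of the 12 falls still passed in AngII+QDG against Control, and 1 of the 12 rises (Txnip) and 3 of the 4 falls in AngII against Control, with no sign turned. The genes that lost a call in AngII+QDG against Control under at least 1 of these scalings were Chac2, Fech, Maob, Me1, Ncf1, Nfe2l2, Nqo2, Rac1, Slc30a1, Slc31a1 and Slc39a10, which were higher, and Fth1, Ftl1 and Gpx3, which were lower.

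Of 10 NRF2 regulators (median log2 fold changes 0.56 for AngII+QDG and 0.54 for AngII against Control), the same 4 rose in both AngII groups against Control: Nfe2l2, which encodes NRF2, its repressor Bach1, and the small Maf partners Mafk and Maff. Bach1 had 3.37 ± 0.566 FPKM in AngII+QDG, 2.58 ± 0.452 in AngII and 1.41 ± 0.298 in Control (SD, n = 5 each), a log2 fold change against Control of 0.86 ± 0.13 for AngII+QDG (SE; limma adjusted p = 0.00184) and 0.57 ± 0.13 for AngII (adjusted p = 0.0202). Nfe2l2 had 18.7 ± 1.09, 19.4 ± 3.03 and 13.5 ± 2.86 FPKM in these groups (0.46 ± 0.15, adjusted p = 0.0383, and 0.50 ± 0.15, adjusted p = 0.0382). Its call in AngII+QDG depended on the transcripts summed. When only those shared by all files were kept, the difference from Control was 0.41 and did not pass (adjusted p = 0.0634). That of AngII stayed at 0.50 and passed (adjusted p = 0.0378). With median scaling Nfe2l2 no longer passed (0.20 and 0.24, adjusted p 0.157 and 0.116), nor did Bach1 in AngII against Control (0.31, adjusted p = 0.151), where quantile normalization also ended its call (0.30, adjusted p = 0.169). Keap1, the sensor that marks NRF2 for degradation, had 14.7 ± 0.808, 14.0 ± 0.804 and 12.6 ± 3.80 FPKM and passed in no comparison.

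Among thioredoxins and peroxiredoxins, 12 genes, Txnip rose in both AngII groups against Control. Txnip, which binds thioredoxin and blocks its reducing activity, had 195 ± 43.9 FPKM in AngII+QDG, 135 ± 35.2 in AngII and 62.3 ± 21.8 in Control (SD, n = 5 each). Its log2 fold change against Control was 1.67 ± 0.24 for AngII+QDG (SE; limma adjusted p = 0.00168) and 1.13 ± 0.24 for AngII (adjusted p = 0.0166), and AngII+QDG against AngII gave 0.53 ± 0.24 (adjusted p = 0.998). Txn1, thioredoxin itself, fell in AngII+QDG against Control (−0.38 ± 0.12, adjusted p = 0.0418). Of 12 tested genes of glutathione synthesis and recycling, Chac1, which degrades glutathione, fell in both AngII groups, with 1.27 ± 0.675 FPKM in AngII+QDG, 1.22 ± 0.364 in AngII and 2.41 ± 0.120 in Control, and Chac2 rose in AngII+QDG against Control. Of 18 tested glutathione transferases (median log2 fold changes −0.29 for AngII+QDG and −0.20 for AngII against Control) none rose, Gsta1, Gsta4 and Gstm2 fell in AngII+QDG against Control, and Gstk1 and Gstm2 fell in AngII against Control.

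Around Hmox1, the 14 heme and iron genes moved in both directions against Control. Fth1, the ferritin heavy chain that stores the iron heme oxygenase frees, fell in both AngII groups, with 1598 ± 171 FPKM in AngII+QDG, 1651 ± 83.3 in AngII and 2047 ± 212 in Control (SD, n = 5 each; log2 fold changes −0.36 ± 0.09 and −0.31 ± 0.09 SE, limma adjusted p 0.0141 and 0.0389). With quantile normalization Fth1 passed in neither (−0.19 and −0.14, adjusted p 0.0787 and 0.247), and with median scaling in both. Ftl1, the light chain, and the heme transporter Slc48a1 fell in AngII+QDG against Control. Ireb2, which regulates iron genes at the level of RNA, rose in both AngII groups and Fech, the last enzyme of heme synthesis, in AngII+QDG. The constitutive oxygenase Hmox2 had 30.9 ± 6.77 FPKM in AngII+QDG, 39.8 ± 6.03 in AngII and 30.6 ± 8.27 in Control, and passed in no comparison. Among 9 tested metal genes, the zinc transporters Slc30a5 and Slc39a10 and the copper importer Slc31a1 rose in both AngII groups against Control, Slc30a1, which exports zinc, rose in AngII+QDG, and the copper chaperone Atox1 fell in AngII+QDG, with 63.3 ± 5.15 FPKM against 94.97 ± 12.9 in Control (−0.57 ± 0.12, adjusted p = 0.0072).

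Of 14 genes of NADPH supply and quinone reduction, Me1, malic enzyme, rose in both AngII groups against Control and Nqo2 in AngII+QDG. Nqo1, a classical NRF2 target, had 25.4 ± 1.26 FPKM in AngII+QDG, 28.5 ± 1.08 in AngII and 28.2 ± 2.47 in Control (SD, n = 5 each) and passed in no comparison. Of 10 tested oxidant sources, Rac1, a GTPase of the NADPH oxidase, had log2 fold changes of 0.28 in AngII+QDG and 0.34 in AngII against Control and passed in both, but with median scaling these were 0.016 and 0.085 (limma adjusted p 0.906 and 0.487) and with quantile normalization it passed in neither (adjusted p 0.0596 and 0.0617). Ncf1, an oxidase subunit, and Maob, a mitochondrial amine oxidase, rose in AngII+QDG against Control. Of 11 tested selenoprotein genes, Selenot rose in both AngII groups and Msrb1 and Selenow fell in AngII+QDG against Control. None of the 3 tested other glutathione peroxidases rose, and neither Sod3, a further dismutase, nor the chaperone Ccs passed in any comparison. Over all called genes of the lists, the main transcripts of the 18 that rose in AngII+QDG against Control were 1315 to 5867 nt long (median 3168) and those of the 12 that fell 541 to 2536 nt (median 972.5), so the ranges overlapped: Chac2, Maff, Maob and Nfe2l2 are shorter than Slc48a1 and rose. In AngII against Control the 12 that rose ran from 1958 to 5867 nt and the 4 that fell from 929 to 1637 nt. With the balance of short and long transcripts of each library as a covariate, 0 of the 115 tested list genes passed against Control, as 0 of all genes did. Of the 30 called in AngII+QDG against Control, 3 turned sign, Fech, Me1 and Slc31a1. Of the 16 called in AngII against Control, 0 did. The balance differs between Control and the AngII groups, and the part of length in these changes was not tested apart from it.

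**Figure D4:**
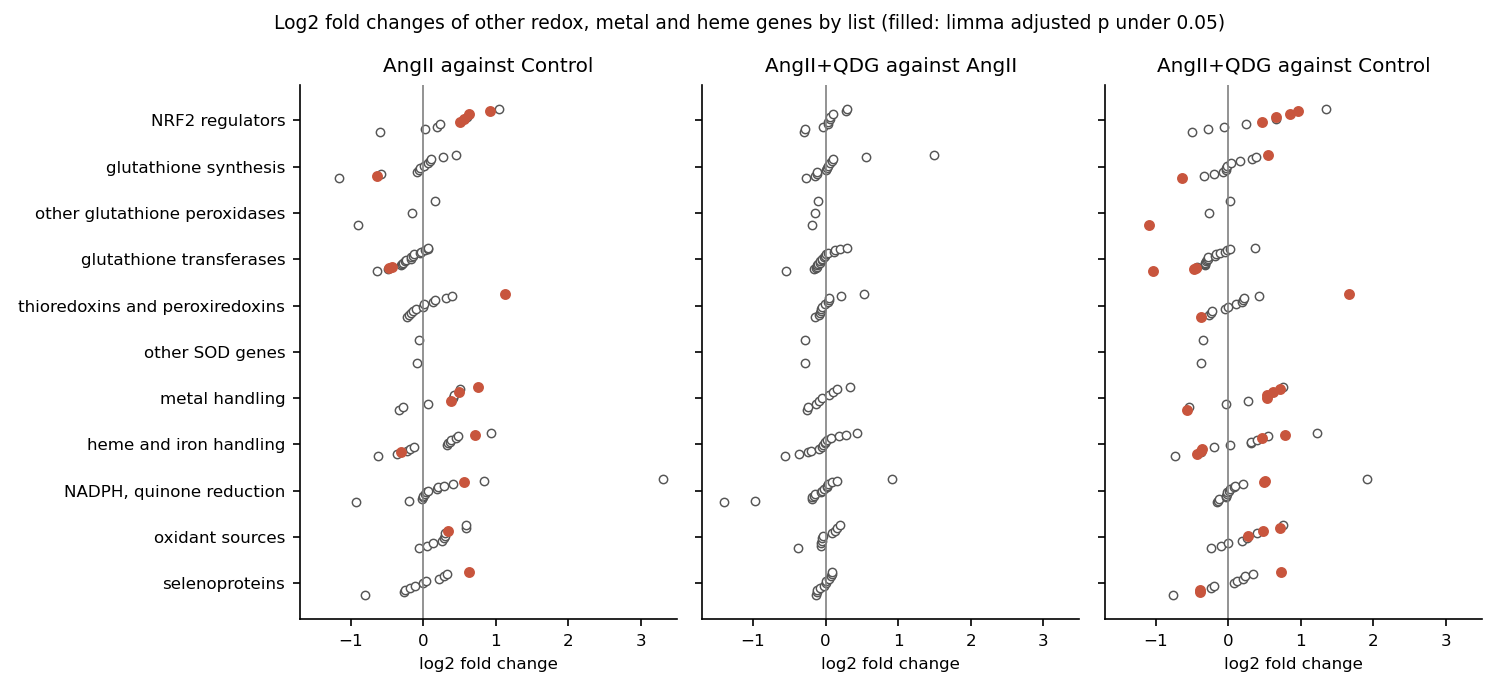
Log2 fold change (horizontal axis) of the tested genes of 11 redox, metal and heme lists (rows) in the 3 comparisons; each point is a gene, and filled points passed limma at an adjusted p under 0.05. In AngII against Control 12 genes are filled to the right and 4 to the left, in AngII+QDG against Control 18 and 12, and in AngII+QDG against AngII none.

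For 3 members the tested genes with the most similar pattern were found by Pearson's r of log2(FPKM + 1) over the 15 libraries, which share the differences between groups and in the balance of short and long transcripts. These r are descriptions. Sap30 (r = 0.89), Spsb4 (0.86) and Fn3krp (0.86) were the most like Hmox1, and Sap30 had 6.90 ± 0.559 FPKM in AngII+QDG, 8.54 ± 1.37 in AngII and 5.93 ± 1.36 in Control (SD, n = 5 each). Spsb4 had 3.49 ± 0.687, 5.22 ± 1.37 and 2.61 ± 0.885 FPKM in these groups. Bud31 (0.95), Chchd7 (0.92) and Card19 (0.90) were the most like Mt1, and Tmem160 (0.94), Nenf (0.93) and Dad1 (0.93) the most like Gpx4. The main transcripts of these last 6 genes are 620 to 878 nt long, between those of Mt1 (549 nt) and Gpx4 (959 nt).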

How the data were processed

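Total heart RNA was isolated with Trizol, and NEB kits removed rRNA and prepared the libraries, per the labels' protocols. The authors deposited 1 table per library with a value per transcript, read here as FPKM because low values times length are whole multiples of a step, and the headers state no unit. The submitters' processing notes name GRCm38 and limma; aligner and quantifier: not given in the sources used here. Control and AngII files list 31685 transcripts and AngII+QDG files 31734, with 29996 in every file. GENCODE M21 named 24756 of the 24789 Ensembl transcripts, which were summed to 12391 genes, and 8634 transcripts without an Ensembl name were left out. A transcript listed in 1 set of files adds to its gene there alone. Whether the AngII+QDG files were quantified separately was not stated in the sources used here. Such a step could not be told apart from QDG. No library pair held identical values (0 pairs). FPKM times length fell within 0.1 of a whole step for 97.1 to 97.2% of values above 0. Whether a step is a read or a fragment could not be told; depth limits low genes, and counting error was not modelled in the main test.

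The test was limma 3.58.1 (intensity trend, robust variance) in R 4.3.3 on log2(FPKM + 1) of genes that reached 0.5 FPKM in 5 or more libraries, all 15 libraries in 1 fit with 12 residual degrees of freedom and Benjamini-Hochberg adjustment over all genes at 0.05. The groups hold 5 mice each, and p-values set a group difference against the spread between these samples, pooled over the 3 groups. Groups were called not overlapping when all values of a group lay beyond all of the other. The 10 genes, the pathway and marker lists and the alternatives were chosen with earlier results of these data known. Named were all 10 genes in every comparison. From each list the called genes with the smallest p, up to 4, were named, or the gene with the smallest p where none was called. For Hmox1, Mt1 and Gpx4 the 3 genes most alike were named. Called list members beyond these were named after their values were seen. So were the partners or counterparts of the 10 genes (Gclm, Txnrd2, Hmox2, Mt3, Mtf1, Keap1, Nqo1, Sod3). Promoters are RefSeq windows of GRCm38.p6. Alternatives covered the pseudocount, the filter, scaling, the samples fitted, the replicate block, shared transcripts, the short-transcript balance, Control 3 and Control 5, voom on recovered fragments, and each library left out. Added after seeing the data was the fit over shared transcripts without Control 5. The steps were tested on simulated data. Python 3.11.15 was used with pandas 2.3.3, numpy 2.4.6 and matplotlib 3.10.9.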

Additional observations from a re-analysis of the deposited data

Results flagged for a closer look

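In 2 of the 30 groups of 5 libraries (10 genes in 3 groups) a library stood apart from the others by Dixon's criterion, which chance alone meets in about 1 of 20 groups. Txnrd1 in AngII+QDG 1 had 13.3 FPKM, where the other 4 libraries had 10.3 to 10.8. These values include the transcript listed only in the AngII+QDG files. Over transcripts listed in every file AngII+QDG 1 had 11.3 FPKM and the other 4 had 6.55 to 10.6, with AngII+QDG 3 the lowest. Gclc in Control 5 had 0.0160 FPKM, where the other 4 Control libraries had 1.32 to 1.82.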

How the results depend on the processing

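Against Control the counts moved with the libraries used and the scaling. In AngII against Control, where 1638 genes and 2 of the 10 passed, 819 genes passed with quantile normalization, 1076 with median scaling, 317 in a fit of the 2 groups alone, 516 with the replicate block, 0 with the balance of short and long transcripts as covariate, 97 without Control 3 and Control 5, and 853 over transcripts listed in every file and without Control 5, a fit chosen after seeing the data. Of the 10 genes, 0 passed in the fit of 2 groups, 1 with the replicate block, 0 with the covariate and 0 without Control 3 and Control 5. In AngII+QDG against Control, where 2374 genes and 4 of the 10 passed, 1438 genes passed in the fit of 2 groups, 0 with the covariate and 1199 without Control 3 and Control 5. Of the 10 genes, 1 passed with quantile normalization, 2 in the fit of 2 groups, 0 with the covariate and 1 without Control 3 and Control 5. In AngII+QDG against AngII 1 gene, lower, passed with a pseudocount of 0.1 FPKM and with the covariate, and 1, higher, with voom, and none of the 10 passed. The causes were not tested.

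With 1 library left out in turn, 1452 to 3022 genes and 2 to 5 of the 10 passed in AngII+QDG against Control, 316 (without AngII 2) to 2484 (without Control 4) genes and 0 to 4 of the 10 in AngII against Control, and 0 to 1 genes and none of the 10 in AngII+QDG against AngII. Signs turned for values near 0: over the omissions Sod2 in AngII against Control ran from −0.111 to 0.043, and in AngII+QDG against AngII Mt2 ran from −0.293 to 0.0246, Sod1 from −0.0643 to 0.00466 and Cat from −0.0799 to 0.0323. With quantile normalization Sod1 and Cat were at 0.0418 and 0.0419 in AngII+QDG against AngII. Txnrd1 was at −0.11 there over transcripts listed in every file, with or without Control 5. Sod2 in AngII+QDG against Control was at −0.15 with median scaling. With the covariate, AngII against Control gave 0.0461 for Mt1, −0.317 for Txnrd1 and −0.0401 for Gclc, AngII+QDG against AngII gave −0.0429 for Txnrd1, and AngII+QDG against Control gave −0.23 for Hmox1, −0.087 for Sod2 and −0.36 for Txnrd1. Hmox1 in AngII against Control was also lost in the fit of 2 groups (adjusted p = 0.0618). Gpx4 in AngII+QDG against Control was lost with quantile normalization (adjusted p = 0.0761) and with the covariate (0.690).

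Same-numbered libraries of different groups did not deviate together: correlations of their deviations from the group means ran from −0.096 to 0.087. In 1 of 15 checks, by replicate and comparison, a library correlated best with its own number. The numbers were not used as pairs, because nothing in the labels says that they mark a shared animal, litter or day. With the replicate block Gpx4 in AngII against Control (adjusted p = 0.0561) and Gclc in AngII+QDG against Control (adjusted p = 0.0689) no longer passed. Counting error weighs on Gclc and Hmox1, with 4 to 719 and 131 to 1975 fragments a library. The 4 fragments of Gclc are from Control 5, whose depth lay among those of the other Control libraries, which held 297 to 413.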
